A study of Arabidopsis thaliana with 48 samples.

Results

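ARL (ARGOS-LIKE, AT2G44080) was followed in Arabidopsis thaliana roots through the single Affymetrix probe set annotated to it alone, 267230_at, which is 1 of 13513 probe sets with 1 gene symbol. It was chosen by its log2 signals on both media in these same arrays, where it was higher on ACC, so its own ACC and control values are a description and carry no test. The 24 ACC arrays came from roots of 6-day-old seedlings moved on a nylon mesh to medium with 1 µM ACC (1-aminocyclopropane-1-carboxylic acid, the precursor from which plants make ethylene), and the 24 control arrays from roots of seedlings moved to the same fresh medium without ACC. Roots were taken within 5 min of transfer (0 h) and at 0.5, 1, 2, 4, 8, 12 and 24 h, with 3 arrays per medium and time. The labels give no genotype, and they number the replicates without saying that these came from separate cultures. The comparison with control medium at the same time asks when ARL starts to differ on ACC, when the difference is largest and how long it lasts.

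ARL belongs with ARGOS, OSR1 and OSR2 to a small family of plant membrane proteins. ARL promotes organ growth through cell expansion and its transcript is known to respond to brassinosteroids. Raised levels of proteins of this family make plants less sensitive to ethylene, and the family is known to act near the receptors, where RTE1 (REVERSION-TO-ETHYLENE SENSITIVITY1) also works.

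The array means agreed to within 0.01 on the log2 scale, from 7.699 to 7.704, so every difference is measured against an array's average signal. By the correlation with all other arrays, 1 array stood apart, replicate 3 of the ACC group at 0.5 h. Another, replicate 3 of the ACC group at 1 h, is titled ACC while its agent field names auxin, and it was kept in the ACC group. In whole roots, a lower signal from fewer cells of a type and from less RNA per cell cannot be told apart. Only 1 of 18 root marker genes was measured with 1 symbol, EXPA7 of root hairs, at a median of 9.54 on the ACC arrays (6.73 to 10.3) and 8.96 on the control arrays (8.33 to 9.86). EXPA7 passed the joint F test (limma adjusted p = 0.0307) but no single time, with differences of -1.02 ± 0.37 at 0.5 h and 0.96 ± 0.37 at 4 h (limma adjusted p = 0.213 and 0.163). Its ACC arrays at 0.5 h read 9.23, 8.13 and 6.73, the last on the array that stood apart. The 3 measured of 12 shoot markers (RCA, LHCB4.2 and FMA) had a summed log2 signal of 20.5 on ACC (19.3 to 21.6) and 19.6 on control medium (18.9 to 21.6). Of these 3, RCA was higher on ACC at 12 h by 1.32 ± 0.28 and LHCB4.2 at 8 h by 0.65 ± 0.19 and at 12 h by 0.65 ± 0.19 (SE, limma adjusted p = 0.00285, 0.036 and 0.0329). Their part in the ARL result was not tested.

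At transfer, the ARL values of the media overlapped. At 0 h its log2 signal was 8.39, 8.59 and 8.39 on the 3 ACC arrays and 7.97, 8.67 and 9.07 on the 3 control arrays. All ACC values lay inside the range of the control values, and the difference was -0.11 ± 0.28 (ACC minus control, SE from the model over all 48 arrays, n = 3 per group).

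By 0.5 h the media had separated. ARL had log2 signals of 11.05, 10.14 and 10.47 on ACC and 8.61, 8.72 and 8.92 on control medium. The lowest ACC array exceeded the highest control array by 1.22, and the mean difference of 1.80 ± 0.28 corresponds to 3.49-fold. Over the same interval the mean moved by 2.09 on ACC medium and by 0.18 on control medium. The difference at 0.5 h was 74.2% of the largest one measured at any time. It was 1.84 without the ACC array that stood apart.

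At 1 h the ACC series had its highest mean, 11.02, close to the 11.01 measured at 12 h. The ACC arrays read 10.63, 11.22 and 11.20 and the control arrays 9.06, 9.27 and 8.81. This was also the highest mean of the control series, 9.05 ± 0.23 (SD), and the difference was 1.97 ± 0.28, or 3.92-fold. Without the array that carries the auxin label it was 1.88.

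The values at 2 h were the most scattered. ARL read 10.70, 11.16 and 9.76 on ACC and 8.31, 9.45 and 8.94 on control medium, with SDs of 0.71 and 0.57. The groups did not overlap, but the lowest ACC array was only 0.31 above the highest control array. The difference of 1.64 ± 0.28 was the smallest after transfer. Its SE is 1 value shared by all times and does not measure the wider scatter at 2 h. Without 1 array it ran from 1.33 (without ACC replicate 2) to 2.03 (without ACC replicate 3), and without replicate 1 of both media it was 1.27.

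The largest difference, 2.43 ± 0.28 or 5.39-fold, was found at 4 h. The log2 signals were 10.82, 10.68 and 11.19 on ACC and 7.96, 8.64 and 8.79 on control medium. The ACC mean of 10.90 at 4 h was no higher than the 11.02 at 1 h, while the control mean of 8.47 was the lowest of that series. Without replicate 1 at all times, the difference was 2.22 at 4 h and 2.28 at 8 h, so that the largest one then fell at 8 h.

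From 8 h to 24 h the ACC arrays stayed above the control arrays. At 8 h ARL read 10.74, 10.62 and 11.08 on ACC and 8.51, 8.40 and 8.75 on control medium, a difference of 2.26 ± 0.28. At 12 h it read 11.01, 10.98 and 11.04 on ACC and 8.86, 8.98 and 8.76 on control medium, a difference of 2.14 ± 0.28 between the tightest pair of groups (SD 0.03 and 0.11). At 24 h it read 10.52, 10.75 and 10.94 on ACC and 8.42, 9.01 and 8.67 on control medium, a difference of 2.03 ± 0.28, or 4.10-fold. In all 3 comparisons the lowest ACC array was at least 1.51 above the highest control array. The difference at 24 h was 83.7% of that at 4 h and lay 0.40 ± 0.40 below it on the log2 scale, a change about the size of its standard error.

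**Figure D1:**
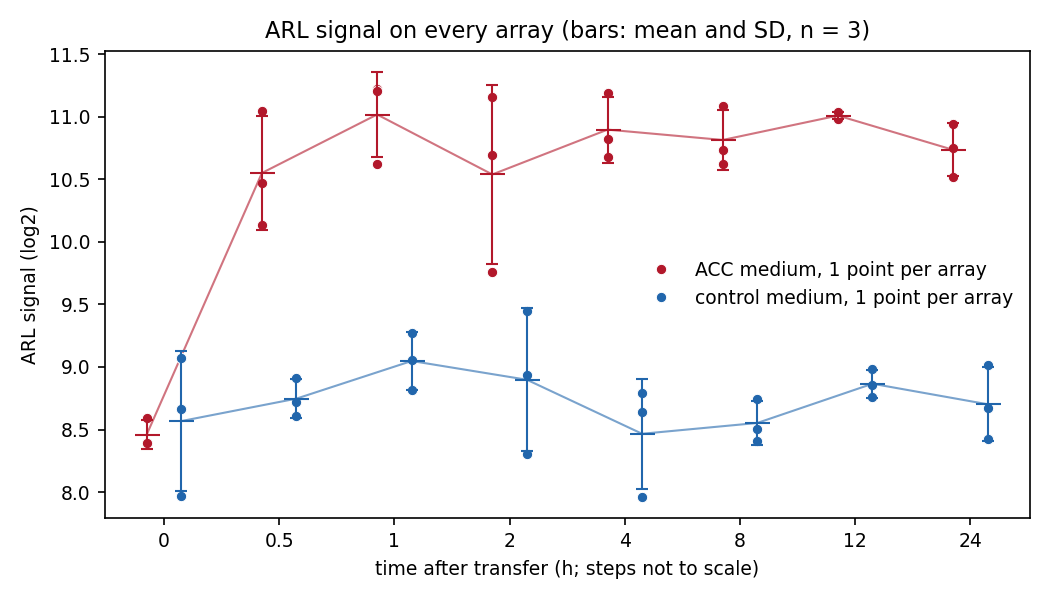
ARL log2 signal (y axis) on each of the 48 arrays by time after transfer in hours (x axis, steps not to scale), with ACC arrays in red left of control arrays in blue. Points are arrays, bars show the mean and SD of 3 arrays, and lines join the means. From 0.5 h on, every ACC array (9.76 to 11.22) lies above every control array (7.96 to 9.45).

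Across the series ARL therefore occupied 2 separate ranges. The 21 ACC arrays after transfer had a lowest, median and highest log2 signal of 9.76, 10.82 and 11.22. The 24 control arrays had 7.96, 8.75 and 9.45, and the gap between the ranges was 0.31. With the 16 group means in order, the lowest was ACC at 0 h (8.46), followed by control medium at 4, 8, 0, 24, 0.5, 12, 2 and 1 h (8.47 to 9.05), then ACC at 2, 0.5, 24, 8, 4, 12 and 1 h (10.54 to 11.02). Every pair of neighbours in this order had overlapping arrays except control medium at 1 h and ACC at 2 h, whose means were 1.49 apart. On control medium the means stayed within a span smaller than the smallest ACC difference, and arrays of neighbouring times overlapped except at 8 and 12 h, where all values of the later time lay just above those of the earlier one.

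Since these ranges do not overlap, any pairing of arrays gives a higher signal on ACC after transfer. Arrays of the same replicate number differed in this direction in 21 of 21 pairs, by 0.82 to 2.86 on the log2 scale. The lowest of these pairs was replicate 3 at 2 h and the highest replicate 1 at 4 h. ARL varied more between replicates than most probe sets. Its residual SD was 0.36, against a median of 0.17, and 91.9% of probe sets had a smaller one.

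Set against all 22739 probe sets, the size of the ARL difference ranked highest early. It was the 14th largest positive difference at 0.5 h, the 6th at 1 h, the 18th at 2 h and the 20th at 4 h. Later it was the 26th at 8 h, the 40th at 12 h and the 37th at 24 h, although its own size at those times exceeded that at 0.5 h. The 99th percentile of all probe sets was 0.90 at 0.5 h, 0.69 at 1 h and 1.15 at 24 h, and the median of all was between -0.02 and 0.01 at each time. ARL was 1 of 24 probe sets (0.106%) whose ACC arrays all lay above the control arrays at each of the 7 times after transfer. At single times this held for 4.98%, 5.98%, 5.09%, 9.21%, 11.6%, 11.8% and 9.75% of probe sets from 0.5 to 24 h. These shares are given as a description, since the same contrast chose the gene.

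**Figure D2:**
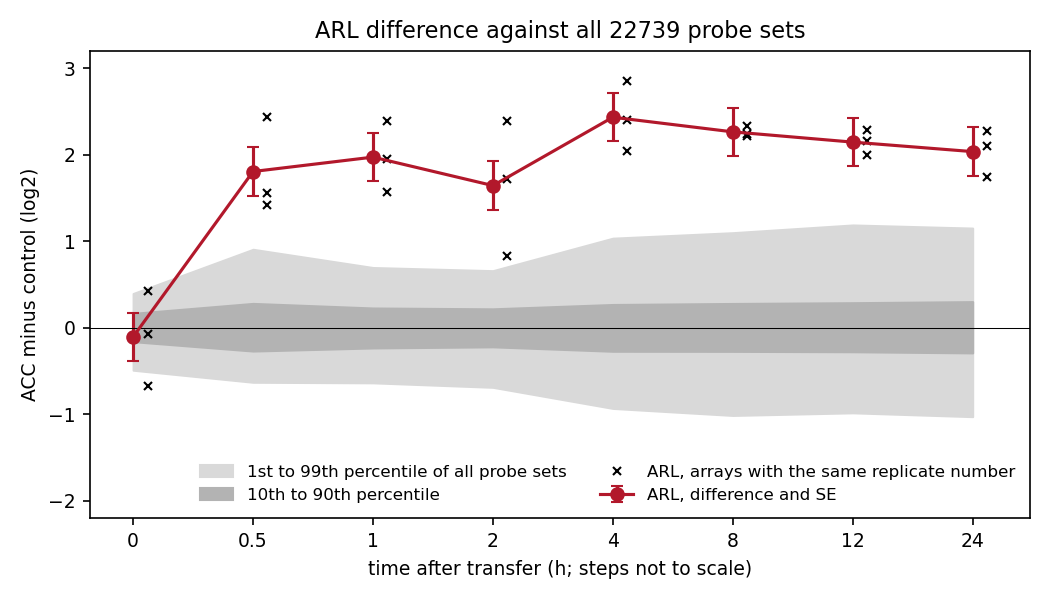
ACC minus control difference on the log2 scale (y axis) by time in hours (x axis, steps not to scale). The red line is ARL with its SE, crosses are ARL differences between arrays of the same replicate number, and grey bands span the 10th to 90th and 1st to 99th percentiles of all probe sets. ARL starts at -0.11, reaches 1.80 at 0.5 h and 2.43 at 4 h, and stands at 2.03 at 24 h.

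An index of RNA integrity differed between the media. For the GAPDH control probes, the log2 signal at the 3' end minus that at the 5' end was larger on ACC by 0.11 to 0.50 at the 7 times after transfer and differed by -0.18 at 0 h. The gap between media was widest at 24 h and narrowest at 2 h. With this index as a covariate the ARL differences were 1.77, 1.88, 1.62, 2.37, 2.18, 2.104 and 1.93 from 0.5 to 24 h, each within 0.11 of the value without it.

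Few of the genes listed for ethylene, organ growth, brassinosteroids and cell walls could be followed beside ARL. None of the other 3 family members on the list (ARGOS, OSR1 and OSR2) was matched to a probe set with 1 symbol, nor was any of 16 organ growth genes. A list gene counts as measured here only if it was matched to a probe set with 1 symbol. The others may lie among the 503 probe sets with several symbols or the 8730 not listed. Over 7 lists holding 99 genes other than ARL, 13 were measured. Of these 2 were higher on ACC at some time after transfer and 5 were lower (limma, Benjamini-Hochberg adjusted p under 0.05), where 5.11% and 5.26% of all probe sets were. The higher ones were on the ethylene lists, and the lower ones on the brassinosteroid and wall lists. The median difference of the 13 was 0.05 at 4 h and -0.03 at 8 h, against 0.00 for all probe sets at both times. From 0.5 to 24 h, 1, 1, 3, 6, 7, 7 and 6 of the 13 passed, where 0.246%, 0.277%, 0.391%, 4.18%, 4.89%, 5.43% and 5.44% of all probe sets did. Without replicate 1 of both media throughout, 0 of the 13 passed at 0.5, 2 and 4 h. A joint F test of the 7 times passed 7 of 13 genes, against 13.3% of all probe sets. The lists were chosen with earlier results of these data known, so an excess over these shares is a description and no test.

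Of 17 ethylene biosynthesis genes only AT1G12010, entered in the list as an ACC oxidase gene, was measured, and it rose. ACC oxidase turns ACC into ethylene. Its log2 signals at 8 h were 9.43, 9.72 and 10.69 on ACC and 7.57, 7.14 and 7.67 on control medium, groups that did not overlap. The difference was 2.49 ± 0.33 (5.60-fold, limma adjusted p = 4.33e-06). It was past the threshold at 4, 8, 12 and 24 h, whereas its values at 0.5 and 1 h were 0.24 ± 0.33 and 0.72 ± 0.33 (limma adjusted p = 0.794 and 0.576). At those early times the ARL difference was 1.80 and 1.97. Whether the 2 genes differ in timing was not tested.

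Of the 9 receptor-level genes, RTE1 and RTH were measured. RTE1 rose at 6 of the 7 times, by 1.04 ± 0.15 at 1 h and at most by 1.50 ± 0.15 at 8 h (limma adjusted p = 4e-08), and at 0.5 h it stood at 0.38 ± 0.15 (limma adjusted p = 0.267). RTH, a relative of RTE1, differed by at most -0.16 ± 0.13 (limma adjusted p = 0.67). Of 15 genes for signalling below the receptors and its output, EIN3 and ETP2 were measured. EIN3 encodes the pathway's main transcription factor and reached 0.22 ± 0.16 at 0.5 h, and ETP2, an F-box protein gene that targets EIN2, reached 0.12 ± 0.16 at 24 h (limma adjusted p = 0.594 and 0.788).

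Growth-related wall genes were lower on ACC wherever they passed the test. Of 25 brassinosteroid genes, EXPA8 and XTH19 were measured and both fell. EXPA8, an expansin gene whose product loosens the wall, was lower by -1.13 ± 0.19 at 8 h (limma adjusted p = 0.00022). XTH19 encodes an enzyme that cuts and rejoins xyloglucan chains. It was lower by -0.88 ± 0.21 at 2 h (limma adjusted p = 0.0471), a call that was lost without any of 5 of the 6 arrays of that time (0.0691 to 0.416) and held without ACC replicate 3. At 4, 8 and 12 h XTH19 was also past the threshold.

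Of 14 genes for cell expansion and wall synthesis, 6 were measured and 3 fell. The expansin gene EXPB1 read 7.46, 7.45 and 7.43 on ACC at 8 h and 9.38, 9.47 and 9.64 on control medium. It was lower by -2.05 ± 0.30 (limma adjusted p = 2.52e-05), with no overlap between the groups. XTH21 was lower by -2.07 ± 0.25 at 12 h (limma adjusted p = 6e-07) and EXPA4 by -1.54 ± 0.32 at 8 h (limma adjusted p = 0.00222). XTH18 and XTH20 had values of 1.12 ± 0.28 and 0.39 ± 0.38 at 0.5 h, and COB, which orients cellulose deposition, 0.33 ± 0.13 at 12 h (limma adjusted p = 0.0712, 0.7 and 0.173).

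**Figure D3:**
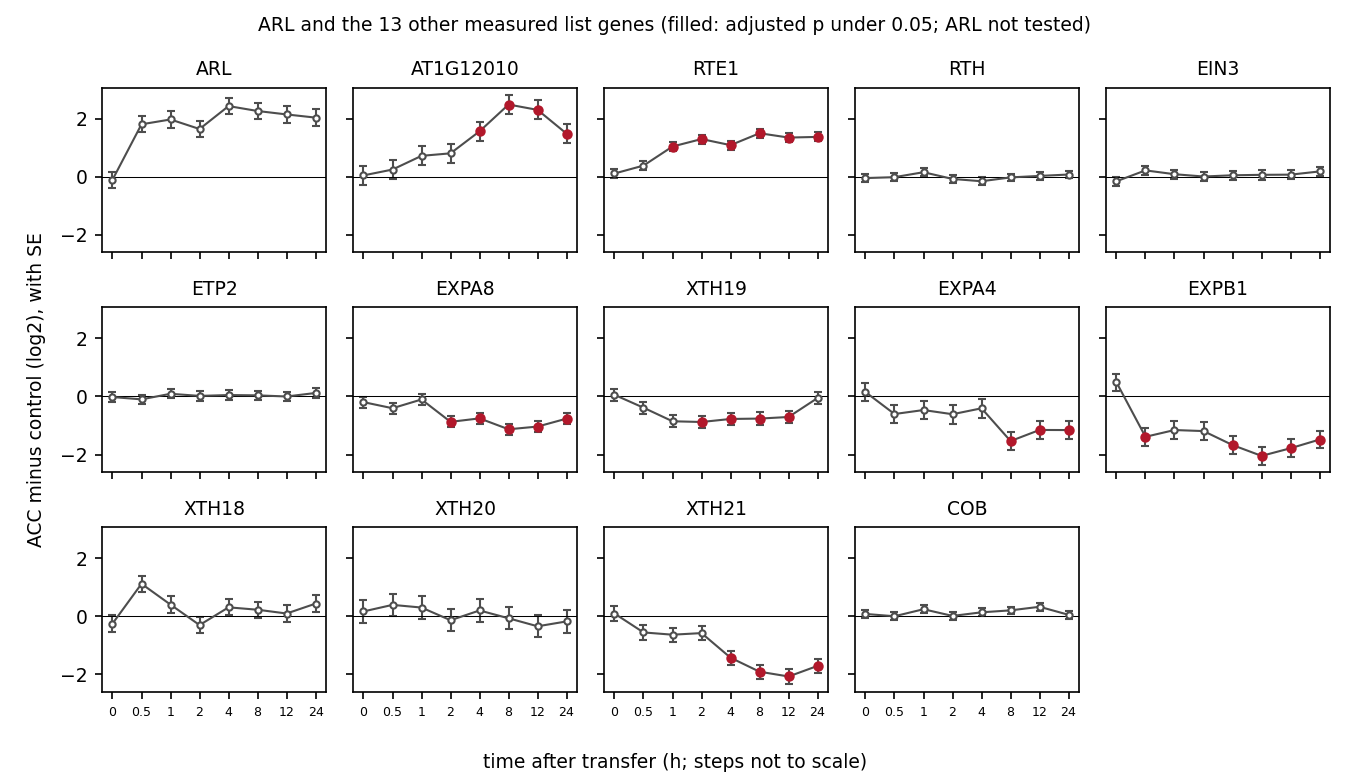
ACC minus control difference on the log2 scale with its SE (y axis) by time in hours (x axis, steps not to scale) for ARL and the 13 other measured list genes, 1 panel per gene. Filled points have a limma adjusted p under 0.05, and ARL was not tested. AT1G12010 reaches 2.49 at 8 h, RTE1 1.50 at 8 h and XTH21 -2.07 at 12 h.

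To find the transcripts that ran most like ARL, each probe set was correlated with it over the 48 arrays. These correlations are descriptions without a p-value, because all genes share the arrays and the 16 groups. The median over 22738 probe sets was -0.02, and the 1st and 99th percentiles were -0.75 and 0.77. Pearson's r was at least 0.9 for 24 probe sets, of which 10 had 1 gene symbol, and at most -0.9 for 3.

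The 10 named genes most like ARL had positive ACC minus control differences at every time after transfer, given here without a test. AT5G40590, of the cysteine- and histidine-rich C1 domain family, had r = 0.956 and differences of 2.22 to 4.50. AT2G04795 had r = 0.944 and differences of 0.84 to 1.32. AT2G43140, a bHLH transcription factor gene, also had r = 0.944, with differences of 1.50 to 2.68. For AT5G01210, an HXXXD acyltransferase gene, r was 0.938 and the differences 1.11 to 1.92. AT5G61590 (DEWAX), an ERF-type repressor of wax synthesis, had r = 0.914 and differences of 1.05 to 2.28.

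The other 5 followed with lower correlations. AT1G33790, of the jacalin lectin family, had r = 0.907, RTE1 0.905, AT1G61740 0.903, AT3G27950, a GDSL lipase-like gene, 0.903 and AT5G46780, a VQ motif gene, 0.901. The 11th had 0.893, so the list has no sharp edge. The share of their own largest difference that these genes had at 0.5 h was 25.5% for RTE1, 46.8% for AT3G27950, 73.1% for AT1G61740 and 75.1% for AT5G46780, against 74.2% for ARL. The other 6 lay between 55.3% and 63.7%.

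At the opposite end stood AT5G41380 (r = -0.916), EXPB1 (-0.909) and AT5G40250 (-0.904), whose differences were negative at every time after transfer. Over the 24 ACC arrays alone, r with ARL ran from 0.778 to 0.954 for the 10 genes. These arrays include the 3 at 0 h, where ARL had a mean of 8.46, against 10.79 on the 21 later ones. This r therefore still holds the step from 0 h to the later times. The mean of each group was then removed for the 10 genes, the 3 opposite ones and ARL. The remaining deviations of single arrays correlated with those of ARL at r = 0.251 for AT1G33790 and up to 0.697 for AT1G61740 (median 0.63). For the 3 opposite genes r was -0.456 to -0.544. All these genes were chosen by r over all arrays, which already holds these deviations. The r of the deviations is not given for all probe sets, so how common such values were is unknown here.

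**Figure D4:**
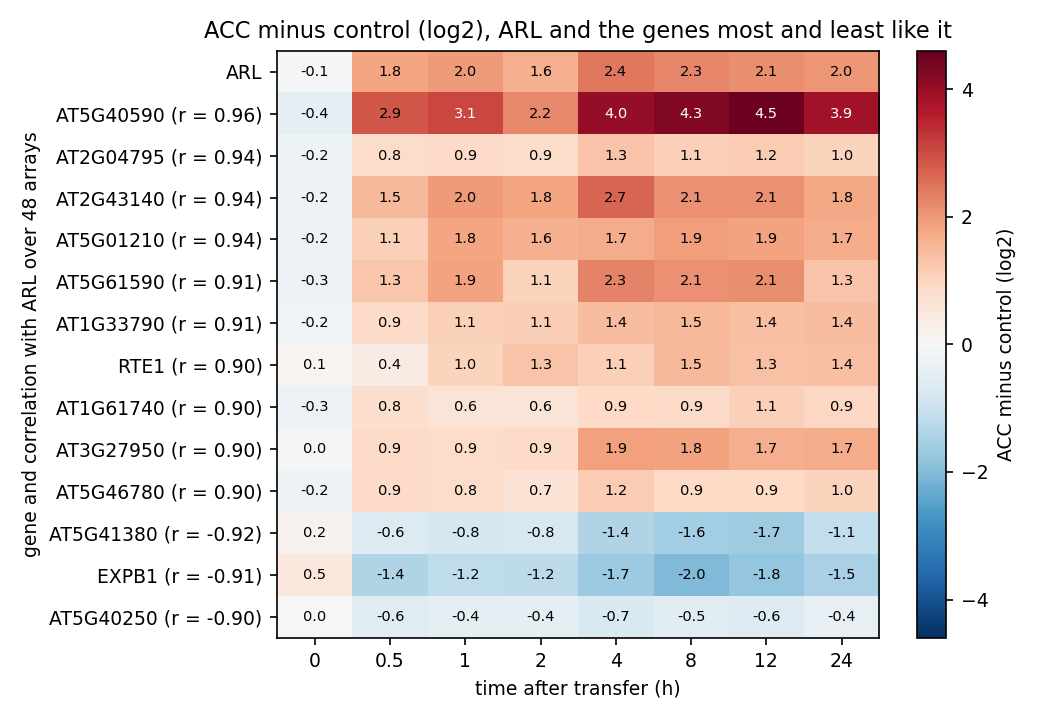
ACC minus control differences on the log2 scale (numbers and colour, red higher on ACC) by time in hours (x axis) for ARL, the 10 named genes with the highest and the 3 with the lowest Pearson correlation with ARL over 48 arrays (y axis, r beside each name). ARL has its largest value at 4 h, 2.43, as do AT2G43140 (2.68), AT5G61590 (2.28), AT3G27950 (1.88), AT2G04795 (1.32) and AT5G46780 (1.17), and AT5G40590 has its largest at 12 h, 4.50.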

How the data were processed

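Roots were profiled on 48 Affymetrix 3' expression arrays. Per the labels' protocols, about 5 µg of total RNA per sample was turned into biotinylated cRNA. The values deposited by the authors lie between 0 and 15.1 and were taken as log2 signals. Not given in the sources used here are the log base, how probes were summarised, and the normalization method. Of 22810 probe sets, 64 controls and 7 with an exact 0 were left out, leaving 22739.

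Probe sets were named from the platform annotation (503 with several symbols and 8730 not listed stay unnamed) and updated through Entrez identifiers with the RefSeq table of TAIR10.1, which matched 13436. limma 3.58.1 in R 4.3.3 fitted 1 mean per group to all 48 arrays (32 residual degrees of freedom), with empirical Bayes moderation and Benjamini-Hochberg adjustment over all probe sets within each time, threshold 0.05. The script was tested on simulated data. The p-values reflect the spread between these arrays alone, which may be technical, and the number of arrays limits the precision.

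ARL, the gene lists and the tests were chosen with earlier results of these data known. Onset was the first time from which all ACC arrays lay above all control arrays. Named genes were ARL, up to 4 members of each list past the threshold or else the 2 with the largest difference, RTE1, RTH, EIN3 and ETP2, and the 10 genes most and 3 least correlated with ARL. XTH18, XTH20, COB and the markers fall outside this rule and were named after their values were seen. Alternatives tried included 2 other scalings, a replicate block, array weights, other priors, filters and adjustments, and left-out arrays.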

Additional observations from a re-analysis of the deposited data

Results flagged for a closer look

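For AT5G01210, 1 of the genes most like ARL, the 3 ACC arrays all lay below the 3 control arrays at 0 h (-0.23) and all above them at each later time (1.11, 1.83, 1.64, 1.72, 1.92, 1.86 and 1.72 from 0.5 to 24 h). A negative difference at 0 h was shared by ARL (-0.11) and by the other genes most like it (-0.42 to -0.04) except RTE1 (0.11). The change of sign between 0 h and later times was not tested. For FMA, a guard cell gene among the shoot markers, the ACC arrays all lay above the control arrays at 4 h (0.11). At 2 h they all lay below the control arrays (-0.23). Neither time passed the threshold (limma adjusted p = 0.74 at 4 h and 0.569 at 2 h), with log2 signals of 5.19 to 5.70. At 4 h, 9.21% of all probe sets had all ACC arrays above all control arrays. No such share is given for all ACC arrays below all control arrays, at 0 h for AT5G01210 or at 2 h for FMA. How common that order was at these times is unknown here. The difference between the 2 times was not tested either.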

How the results depend on the processing

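The onset of the ARL difference at 0.5 h was found under all scalings. Without each replicate number it was also 0.5 h. A later onset could not arise there, because leaving out arrays cannot make separate groups overlap. The ARL difference at 0 h ran from -0.41 to 0.18 when single arrays or replicate numbers were left out, and from 0.5 to 24 h it ran from 1.49 to 2.01, 1.76 to 2.17, 1.27 to 2.05, 2.18 to 2.63, 2.13 to 2.36, 2.07 to 2.22 and 1.89 to 2.19. Array weights moved the 2 h value to 2.01. The peak time ran from 4 to 8 h and the share of the peak kept at 24 h from 78.3% to 88.0% without each replicate number. Deviations of same-numbered ACC and control arrays from their group means correlated above 0.1 in 16 of 24 pairs (median 0.13), not in all, so the replicate number stayed out of the model. Since each group holds every replicate number once, the replicate block could not change the ARL differences, which stayed at 2.43 for 4 h. With the replicate block, no count of the 13 other list genes moved by over 1.5 times. In fits on the 6 arrays of a time, 0 passed at 0.5, 1 and 2 h. With array weights 2 and 3 passed at 0.5 and 1 h, as they did with adjustment over the 8 contrasts together. Without the array that stood apart 0 passed at 0.5 h. After subtraction of the 0 h difference 0, 0, 1, 3, 4 and 3 passed at 0.5, 1, 2, 4, 12 and 24 h, and 4 passed the F test. Left-out arrays or replicate numbers gave 0 to 3, 1 to 2, 0 to 4, 0 to 5, 5 to 7, 4 to 7 and 2 to 6 from 0.5 to 24 h, and 7 to 8 in the F test. The lowest counts came without replicate 1 at 0.5, 2 and 4 h, without replicate 2 at 0.5 and 24 h, without replicate 3 at 12 h, and at 0.5 h also without ACC replicate 3 or control replicates 1 or 2. Single arrays also moved the counts at 0.5 h (2 and 3 without ACC replicates 1 and 2), 1 h (2 without ACC replicate 1 or control replicate 2) and 2 h (1 without ACC replicates 1 or 2 or control replicate 1). XTH19 at 2 h also lost its call with median centring (0.0561), the GAPDH covariate (0.0584) and without the array with the auxin label (0.0529), with differences of -0.87 to -0.88, in the fit on the 6 arrays of that time (0.533) and after subtraction of the 0 h difference (0.532), within limma adjusted p-values of 0.00174 to 0.956 over all alternatives. EXPA4 at 8 h lost it without replicate 3 (0.0515) and EXPA8 after subtraction of the 0 h difference (0.078). Of the 10 genes most like ARL, 5, 6 and 4 stayed when the correlation was taken over the 8 differences, over the 24 ACC arrays or as Spearman's rho. The causes were not tested. How far the signal stood above background is unknown here.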

Other observations

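Beside ARL, 13 named probe sets had all ACC arrays above all control arrays at each of the 7 times after transfer, a set looked at after its values were seen. By mean difference over these times they were led by AT2G39980 (2.33), ahead of ARL (2.04), AT5G01210 (1.69), AT2G47550 (1.64), AT1G33790 (1.27), RTE1 (1.14) and AT4G01700 (1.03). PPDK, the pyruvate orthophosphate dikinase gene, was also among them at 0.68. Within this set ARL had the largest minimum of the named ones, 1.64 at 2 h, against 1.11 for AT5G01210 and 1.00 for AT2G47550. Outside it AT5G40590, whose arrays separated at only 6 of the 7 times, had a larger minimum, 2.22. Over all probe sets ARL was among 4 with a minimum of at least 1.64.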
